A study of Homo sapiens with 10 samples.

Results

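The ligands of the ERBB receptors were described by 10 genes, chosen by name: AREG, EREG, EPGN, BTC, HBEGF, TGFA and EGF, which encode the 7 ligands of the EGF receptor, and NRG1, NRG2 and NRG4, which encode neuregulins. All 10 were among the 62656 genes of the deposited table. Their RNA was measured in PC3, an epithelial cell line established from a bone metastasis of prostate cancer, in 5 libraries treated with the vehicle DMSO and 5 treated with GW3965 at 1 µM, which activates the liver X receptors (LXRs). Both treatments lasted 24 h, in the same medium (RPMI-1640 with L-glutamine), after a night of starvation that the DMSO cells shared, and no other agent is named in the labels. The comparison of both groups bears on which of these ligands respond at the RNA level when LXRs are activated in this cell line. Only 1 cell line and 1 dose were studied, and nothing states that the libraries of a group came from separate cultures, so that p-values measure the spread between these libraries, which may be technical.

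Most ERBB ligands are made as proteins anchored in the plasma membrane, each with an EGF-like domain, and ADAM metalloproteases such as ADAM17 cut them free. The released domain binds EGFR (the EGF receptor) or, for neuregulins, ERBB3 and ERBB4, the receptors pair with one another or with ERBB2, and the signal runs through adaptors and RAS to the kinases ERK1 and ERK2. Amphiregulin, epiregulin and epigen bind EGFR with lower affinity than EGF, TGF-alpha, betacellulin and heparin-binding EGF-like growth factor, and betacellulin, epiregulin and heparin-binding EGF-like growth factor also bind ERBB4. LXRs are nuclear receptors for oxysterols that bind DNA with RXR and are known for the control of cholesterol efflux and fatty acid synthesis.

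The domain that makes these genes a family is held together by 6 cysteines, and its coding sequence is printed to show what the measured transcripts share, for AREG, for TGFA and BTC, which came next in fold change, and for NRG2, the neuregulin with the highest level. The 4 sequences below were read from GENCODE 29 (GRCh38), in the 5′ to 3′ direction of the transcript, from the first to the last of these cysteine codons, which are in capitals. Each spans 2 coding exons: chr4:74449172-74450410 on the + strand for AREG, chr2:70456458-70465692 on the − strand for TGFA, chr4:74750689-74755935 on the − strand for BTC and chr5:139865143-139871800 on the − strand for NRG2.
AREG: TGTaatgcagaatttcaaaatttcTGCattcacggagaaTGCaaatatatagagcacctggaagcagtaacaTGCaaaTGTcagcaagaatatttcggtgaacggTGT
TGFA: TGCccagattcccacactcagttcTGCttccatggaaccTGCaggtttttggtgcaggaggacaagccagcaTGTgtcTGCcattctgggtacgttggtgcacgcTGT
BTC: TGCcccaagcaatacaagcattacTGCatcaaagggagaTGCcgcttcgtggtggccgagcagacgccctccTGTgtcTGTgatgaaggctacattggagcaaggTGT
NRG2: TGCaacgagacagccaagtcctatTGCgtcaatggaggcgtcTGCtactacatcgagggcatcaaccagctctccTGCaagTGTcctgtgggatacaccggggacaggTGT
The pattern used to find the domain fixed the gaps of 7, 1 and 8 codons, and only the other gaps could differ between genes. Between the cysteines of AREG, TGFA and BTC lay 7, 4, 10, 1 and 8 codons. EREG, EPGN and HBEGF had the same spacing, so that the domain took 108 bases in all of these 6 genes. In NRG2, as in NRG4 and EGF, the second gap held 5 codons and the domain took 111 bases. The GC content of the 4 printed sequences was lowest in AREG (38%), against 54.6% in TGFA and in BTC and 55.9% in NRG2.

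The table gives RPKM values, reads per kilobase of gene with a scaling of each library, so that levels of different genes can be set side by side. The read counts behind the values could be recovered, and the libraries held from 30434696 to 41642538 reads on genes. The known LXR target genes ABCA1, ABCG1, SREBF1 and MYLIP were all higher with GW3965 by limma, with log2 fold changes of 2.29, 2.13, 0.74 and 0.74 and adjusted p = 0.00063, 0.000124, 0.00362 and 0.00714. Of 5 epithelial markers 4 reached a mean of 0.5 RPKM, with sums of at least 197 RPKM in every DMSO library and at least 219 RPKM in every GW3965 library. Most of that was keratin RNA (KRT19, KRT18 and KRT8), while EPCAM was at 1.57 ± 0.349 and 1.89 ± 0.191 RPKM and CDH1, the gene of E-cadherin, at 0.249 ± 0.126 and 0.322 ± 0.172 RPKM (SD, n = 5). Of 5 leukocyte markers none reached a mean of 0.5 RPKM (sums of 0.125 to 0.238 and 0.0544 to 0.41 RPKM), of 4 endothelial markers PECAM1 and KDR did (1.55 to 2.38 and 1.25 to 2.21 RPKM), and of 5 fibroblast markers COL1A1 did (1.06 to 1.31 and 0.834 to 1.32 RPKM). Of the luminal prostate markers, KLK3 was at 0 in all libraries. None of the tested markers passed the limma threshold between the groups, and none had an unadjusted p under 0.05. In bulk RNA, more cells that express a gene and more RNA per cell cannot be told apart.

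Of the 10 ligand genes, AREG alone passed the threshold of the comparison. AREG encodes amphiregulin, a ligand restricted to EGFR that was first purified from a breast cancer cell line. With DMSO its level was 5.56, 5.32, 4.79, 5.68 and 4.83 RPKM in libraries 1 to 5, and with GW3965 it was 12.2, 13, 12.3, 11.9 and 9.45 RPKM. The groups did not overlap, and the lowest GW3965 library (library 5) still stood well above the highest DMSO library. From 238 to 370 reads per library were behind the DMSO values and from 503 to 854 behind the GW3965 values. The mean level went from 5.23 ± 0.41 to 11.8 ± 1.35 RPKM (SD, n = 5 per group), a ratio of 2.25, and the log2 fold change on the scale of log2(RPKM + 0.1) was 1.15 (SE 0.09, 95% confidence interval 0.95 to 1.35, limma adjusted p = 0.00021). In an exact permutation test of the RPKM values, p was 0.00794, the smallest that 5 against 5 libraries can give. By log2 fold change AREG ranked 84 of 20402 tested genes. Without GW3965 library 5 its log2 fold change was 1.22.

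Across all 20402 tested genes 0.157% passed the same threshold, and 0.147% passed it with a higher level in the GW3965 group. Of the ligand genes 6 of 10 had a mean of at least 0.5 RPKM and entered the fit, and 1 of these 6 was called. The groups of libraries did not overlap in 1.84% of all tested genes and in 1 of the 6 ligand genes, again AREG. An unadjusted p under 0.05 was found for 6.99% of all tested genes and for 3 of the 6 ligand genes, AREG, TGFA and BTC. The median log2 fold change of the 6 was 0.25, beside 0.0034 over all tested genes, and 5 of the 6 were positive, beside 51.1% of all tested genes. The choice of the ligand family was made with the change of AREG already known, and these shares are a description.

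**Figure D1:**
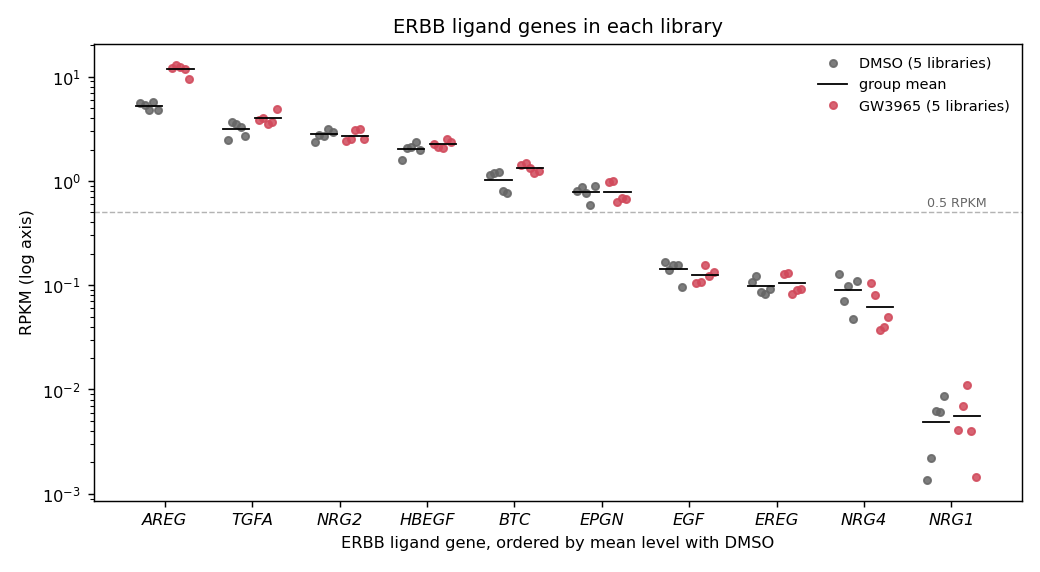
Level of each of the 10 ERBB ligand genes in every library, in RPKM on a log axis, with DMSO libraries in grey, GW3965 libraries in red and a bar at the mean of each group. AREG is the highest of the ligand genes in both groups and the one whose groups do not overlap (4.79 to 5.68 and 9.45 to 13 RPKM), while EGF, EREG, NRG4 and NRG1 lie below the dashed line at 0.5 RPKM, the mean level required for the fit.

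TGFA and BTC, which encode TGF-alpha and betacellulin, came next in the size of the difference, and neither passed the threshold. TGFA stood at 2.49, 3.67, 3.51, 3.27 and 2.72 RPKM with DMSO and at 3.85, 3.98, 3.51, 3.69 and 4.85 RPKM with GW3965. Most GW3965 libraries lay above all DMSO libraries, but GW3965 library 3 was inside the DMSO range, and the highest value came from GW3965 library 5, in which AREG was lowest of its group. Its means were 3.13 ± 0.508 and 3.97 ± 0.521 RPKM (SD, n = 5), and the log2 fold change was 0.34 (SE 0.12, 95% confidence interval 0.07 to 0.61, limma unadjusted p = 0.0167, adjusted p = 0.551). The whole of that interval lay below the interval of AREG.

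BTC was at 1.14, 1.19, 1.21, 0.792 and 0.768 RPKM with DMSO and at 1.42, 1.49, 1.32, 1.2 and 1.24 RPKM with GW3965. The DMSO values fell into a higher set of 3 libraries and a lower set of 2 (libraries 4 and 5), and only GW3965 library 4 reached down into the DMSO range. The log2 fold change was 0.38 (SE 0.14, 95% confidence interval 0.06 to 0.70, limma unadjusted p = 0.0229, adjusted p = 0.58), from 66 to 134 reads per DMSO library and 107 to 158 per GW3965 library. The spread of the 5 DMSO libraries, a coefficient of variation of 21.6%, was above the 10.2% that counting alone gives at this depth.

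HBEGF encodes heparin-binding EGF-like growth factor, which is also the receptor of diphtheria toxin. It was at 1.59, 2.07, 2.1, 2.38 and 1.98 RPKM with DMSO and at 2.24, 2.1, 2.07, 2.53 and 2.38 RPKM with GW3965. The groups overlapped between 2.07 and 2.38 RPKM, where most libraries lay, with DMSO library 1 below all others. The log2 fold change was 0.16 (SE 0.10, 95% confidence interval -0.07 to 0.39, limma adjusted p = 0.834).

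EPGN encodes epigen and lies nearest to EREG in the ligand cluster of chromosome 4. It was at 0.799, 0.865, 0.761, 0.589 and 0.889 RPKM with DMSO and at 0.972, 0.993, 0.632, 0.685 and 0.674 RPKM with GW3965. GW3965 libraries 1 and 2 lay above all DMSO libraries and the other GW3965 libraries lay within their range, and the log2 fold change was 0.01 (SE 0.17, 95% confidence interval -0.37 to 0.38, limma adjusted p = 0.997). At this spread a change of the size seen for AREG lay outside the interval, while a change of the size fitted for HBEGF lay inside it.

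NRG2, the neuregulin with the highest level, was at 2.35, 2.76, 2.69, 3.18 and 2.98 RPKM with DMSO and at 2.39, 2.52, 3.06, 3.14 and 2.50 RPKM with GW3965. The ranges of both groups nearly coincided, and the log2 fold change was -0.04 (SE 0.10, 95% confidence interval -0.26 to 0.19, limma adjusted p = 0.977). Its exons share 234 bases with the antisense gene AC008667.2 (0.158 RPKM), and the strand setting of the counting is not given in the sources used here.

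The remaining 4 ligand genes had a mean under 0.5 RPKM and were compared by an exact permutation test alone. EGF, the founding member of the family, was at 0.167, 0.139, 0.156, 0.155 and 0.0971 RPKM with DMSO and at 0.104, 0.108, 0.156, 0.122 and 0.134 RPKM with GW3965, from 24 to 45 reads per library. The groups overlapped (exact permutation p = 0.278). Without DMSO library 5, the lowest of its group, the unadjusted exact permutation p was 0.0476, with EGF lower in the GW3965 group. With any other single library left out, the exact permutation p was from 0.159 to 0.508. The ratio of reads, scaled by library, was -0.20 on the log2 scale, with a 95% interval of -0.50 to 0.11 that covers counting error only, as do all intervals from reads, since no molecular identifiers were used.

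EREG, which encodes epiregulin and is the ligand gene next to AREG, was at 0.106, 0.124, 0.0867, 0.0828 and 0.0918 RPKM with DMSO and at 0.129, 0.131, 0.0832, 0.0890 and 0.0918 RPKM with GW3965. From 15 to 30 reads per library were behind these values, the groups covered nearly the same range (exact permutation p = 0.603), and the log2 ratio of reads was 0.08 (-0.32 to 0.49). For AREG the same ratio was 1.17 (1.08 to 1.26), above the whole interval of EREG.

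NRG4, a neuregulin that binds ERBB4, was at 0.127, 0.0705, 0.0987, 0.0471 and 0.111 RPKM with DMSO and at 0.105, 0.0797, 0.0368, 0.0394 and 0.0492 RPKM with GW3965. With 7 to 22 reads per library, the groups overlapped (exact permutation p = 0.183), and the log2 ratio of reads was -0.51 (-1.03 to -0.00). The exons of NRG4 share 1917 bases with FBXO22 on the opposite strand (2.15 RPKM). The reads counted for NRG4 may therefore depend on the strand setting, which is not given. NRG1 was close to the limit of detection, with 1 to 9 reads per library and 18 reads in all DMSO libraries against 22 in all GW3965 libraries (exact permutation p = 0.738).

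In order of their mean level with DMSO, the ligand genes were AREG, TGFA, NRG2, HBEGF, BTC, EPGN, EGF, EREG, NRG4 and NRG1, and the order with GW3965 was the same. Neighbours whose DMSO libraries overlapped were TGFA and NRG2, NRG2 and HBEGF, BTC and EPGN, EGF and EREG, and EREG and NRG4. AREG was separate from TGFA, HBEGF from BTC, EPGN from EGF, and NRG4 from NRG1. With GW3965 the lowest TGFA value (3.51 RPKM) was also above the highest NRG2 value (3.14 RPKM). These levels use the gene lengths of the authors' table, which could be worked out from the reads. They were close to those of GENCODE 29 for AREG (1642 against 1648 bases). They were longer for EPGN (3299 against 1814), EGF (7628 against 6127) and NRG1 (21389 against 11328). The same reads over the GENCODE lengths would place these 3 genes higher. The order above holds for the authors' lengths. For BTC the length was 2653 bases against 2816 in GENCODE 29. With the GENCODE lengths, EPGN would stand above BTC in both groups.

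The makeup of the ligand RNA was then set out by library. Summed over the 10 genes, ligand RNA was from 14.3 to 16.2 RPKM with DMSO and from 21.4 to 24.4 RPKM with GW3965, with means of 15.3 ± 0.9 and 23.1 ± 1.1 (SD, n = 5). AREG made up 34.2 ± 2.93% of the sum with DMSO (31.1 to 38.8%) and 50.7 ± 3.74% with GW3965 (44.2 to 53.3%). The shares of TGFA, NRG2 and HBEGF went from means of 20.4, 18.2 and 13.2% to 17.3, 11.8 and 9.82%. The levels of TGFA and HBEGF themselves were higher with GW3965 by log2 fold change (0.34 and 0.16). That of NRG2 was nearly the same (-0.04), and none of these changes passed the threshold.

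Without AREG, the other 9 genes summed to 10.1 ± 0.871 RPKM with DMSO (8.76 to 10.9) and to 11.4 ± 0.388 RPKM with GW3965 (10.9 to 11.9), a ratio of 1.13 against 1.51 for all 10. For the 7 ligands of EGFR the sum went from 12.4 ± 0.812 to 20.4 ± 1.1 RPKM, and for the 6 other than AREG from 7.2 ± 0.772 to 8.6 ± 0.598 RPKM. The neuregulin sum was 2.89 ± 0.291 and 2.79 ± 0.329 RPKM.

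**Figure D2:**
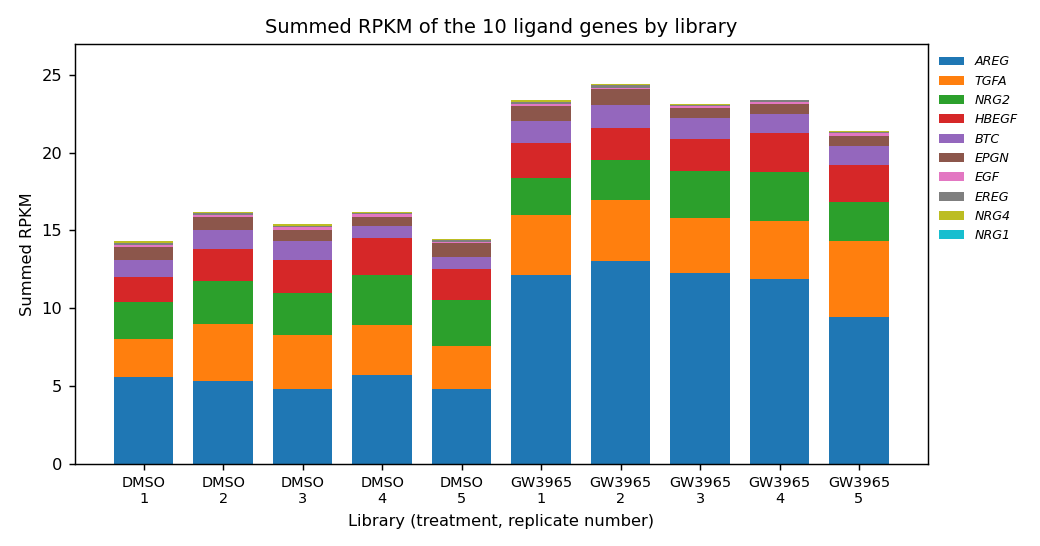
Summed RPKM of the 10 ligand genes in each of the 10 libraries (horizontal axis), stacked by gene. The GW3965 bars (21.4 to 24.4 RPKM) stand above the DMSO bars (14.3 to 16.2 RPKM), and most of the added height is the AREG block at the foot of each bar.

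Whether AREG responded differently from its relatives was tested in each library by the log2 ratio of AREG to each other ligand gene with at least 5 reads in every library. All 8 ratios were higher with GW3965. The difference was smallest for BTC (0.77) and TGFA (0.81) and largest for NRG4 (1.38) and EGF (1.26), with 0.99 for HBEGF, 1.10 for EREG, 1.14 for EPGN and 1.19 for NRG2. The groups of libraries did not overlap for 7 of the 8 ratios (exact permutation p = 0.00794 each, not adjusted over the 8), and for TGFA they did (exact permutation p = 0.0159). The overlap came from GW3965 library 5, with low AREG and high TGFA, where the log2 ratio was 0.95, below the highest DMSO library (1.13). All 8 ratios share the AREG values and AREG was named with its change known, so they are not independent of one another or of the result above.

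The position of the genes gave a second view. In GENCODE 29 (GRCh38), 4 of the ligand genes lie close together on chromosome 4: EPGN at 74308473 to 74315307, EREG at 74365143 to 74388751 and AREG at 74445134 to 74455009 on the + strand, and BTC at 74744759 to 74794686 on the − strand. Of these AREG was called, while the levels of EPGN and EREG differed by ratios of means of 1.01 and 1.07 and that of BTC by 1.31. The CXC chemokine genes before the cluster and the genes after it gave no call. CXCL8 went from 1.74 ± 0.278 to 1.48 ± 0.256 RPKM (log2 fold change -0.22, limma adjusted p = 0.819), CXCL1 from 3.08 ± 0.442 to 3.07 ± 0.369 RPKM and CXCL2 from 0.896 ± 0.166 to 0.774 ± 0.159 RPKM (SD, n = 5).

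MTHFD2L, a mitochondrial folate enzyme gene before EPGN, was at 2.57 ± 0.283 and 2.42 ± 0.145 RPKM, and RCHY1 and THAP6, beyond BTC, had log2 fold changes of -0.10 and 0.11. CXCL3, CXCL5, PARM1 and EREG were under 0.5 RPKM. In all, 1 of the 9 tested genes of the 13 listed along this stretch passed, beside 0.157% of all tested genes, and it was AREG. The other ligand genes lie apart, HBEGF (140332843 to 140346631) and NRG2 (139846779 to 140043299) on the − strand of chromosome 5, TGFA (70447280 to 70554193) on the − strand of chromosome 2, EGF (109912884 to 110012266) on the + strand of chromosome 4 and NRG4 (75935969 to 76059795) on the − strand of chromosome 15.

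**Figure D3:**
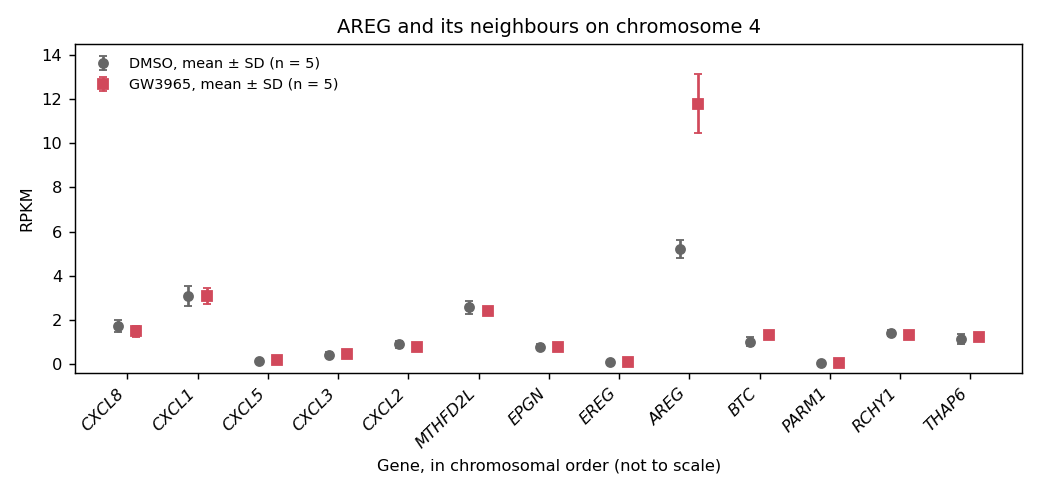
Mean level with SD (n = 5) of the 13 genes listed around AREG on chromosome 4, in chromosomal order on the horizontal axis and RPKM on the vertical axis, with DMSO as grey circles and GW3965 as red squares. AREG goes from 5.23 to 11.8 RPKM, and the error bars of the other genes lie on or near one another, with BTC at 1.02 and 1.34 RPKM.

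The sequences before the starts of AREG and EREG are printed to set the ligand gene that was called beside its nearest relative on the same strand, for which no difference was detected. They are 250 bases from RefSeq (GRCh38.p14), 5′ to 3′ on the + strand, chr4:74444886-74445135 for AREG and chr4:74364895-74365144 for EREG. Capitals mark matches to the motifs searched.
AREG: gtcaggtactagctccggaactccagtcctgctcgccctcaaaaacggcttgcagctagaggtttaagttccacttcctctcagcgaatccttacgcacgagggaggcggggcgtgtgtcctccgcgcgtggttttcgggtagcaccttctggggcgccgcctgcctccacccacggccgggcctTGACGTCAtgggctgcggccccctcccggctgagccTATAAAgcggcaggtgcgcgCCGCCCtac
EREG: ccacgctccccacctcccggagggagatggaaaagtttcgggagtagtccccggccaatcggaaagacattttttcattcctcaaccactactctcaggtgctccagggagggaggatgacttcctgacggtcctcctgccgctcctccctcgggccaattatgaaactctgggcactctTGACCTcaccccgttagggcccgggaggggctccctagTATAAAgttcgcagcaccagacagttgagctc
In AREG the capitals are a cyclic AMP response element TGACGTCA from 65 to 58 bases before the start, a TATA box TATAAA from 29 to 24 and a GC box, GGGCGG on the opposite strand, from 9 to 4. In EREG they are a nuclear receptor half-site, AGGTCA on the opposite strand, from 70 to 65, and a TATA box from 32 to 27.

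The background was 27305 RefSeq promoters of this length, the first listed for each gene, searched on both strands. For the ligand genes every listed promoter was searched, also the later ones of TGFA and NRG2. Of the 27305, 1.77% held TGACGTCA, and of the 9 ligand genes with a promoter in the table AREG did. The half-site AGGTCA was in 12.1% of the 27305 and in EREG and NRG4. The TATA box was in 11.1% and in AREG, EREG, EPGN and NRG4, and the GC box in 42.3% and in AREG, HBEGF, TGFA and NRG2. The AP-1 site TGANTCA was in 6.6% of the 27305 and in EGF. The repeat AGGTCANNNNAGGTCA is the ideal form of an LXR response element and contains the half-site. It was in 0.0146% of the 27305 and in none of the 9, in these windows and with these letters. A match of letters is no evidence of a bound site.

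The receptors for these ligands were read from the same fit. EGFR was the most abundant, with 7.4 ± 0.593 RPKM with DMSO and 7.81 ± 0.838 RPKM with GW3965 (log2 fold change 0.07, SE 0.08, limma adjusted p = 0.933). ERBB2, which has no ligand of its own, followed with 6.16 ± 0.26 and 6.27 ± 0.231 RPKM (log2 fold change 0.03, limma adjusted p = 0.965). ERBB3, whose kinase is nearly inactive, was at 0.988 ± 0.107 and 1.03 ± 0.158 RPKM (log2 fold change 0.05, limma adjusted p = 0.977), and ERBB4 at 0.0314 ± 0.0144 and 0.0378 ± 0.0109 RPKM was not in the fit. No receptor passed the threshold, and none had an unadjusted p under 0.05 by limma.

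Of 12 genes listed for the shedding of ligands, which were ADAM proteases, the iRhoms and FRMD8 as cofactors of ADAM17, the rhomboid protease gene RHBDL2 and the aspartyl protease gene BACE1, 10 were tested and none passed by limma, with 2 of 10 at an unadjusted p under 0.05 (ADAM9 and ADAM19), beside 6.99% of all tested genes. ADAM17, the main protease for AREG and TGFA, was at 2.5 ± 0.252 and 2.61 ± 0.197 RPKM (log2 fold change 0.06, SE 0.08, limma adjusted p = 0.944), and ADAM10, which sheds EGF and BTC, had a log2 fold change of 0.10 (SE 0.14, limma adjusted p = 0.955). The ends of the list were ADAM9, with 10.4 ± 1.28 and 12.7 ± 0.919 RPKM (log2 fold change 0.29, SE 0.09, limma adjusted p = 0.446) and no overlap between the groups (1.84% of all tested genes), and ADAM19, with 22.3 ± 4.2 and 17.4 ± 2.83 RPKM (log2 fold change -0.35, SE 0.14, limma adjusted p = 0.61).

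All 16 genes of the adaptors, RAS proteins and the ERK cascade were tested, and none passed or had an unadjusted p under 0.05 by limma. Their median log2 fold change was 0.01, and SOS2, an exchange factor of RAS, was highest (log2 fold change 0.18, limma adjusted p = 0.792). Of 11 negative regulators 10 were tested and none passed or had an unadjusted p under 0.05, with ERRFI1, an inhibitor of the EGFR kinase, highest at 24.3 ± 4.35 and 29.2 ± 4.2 RPKM (log2 fold change 0.27, SE 0.13, limma adjusted p = 0.729) and LRIG3 lowest (log2 fold change -0.04, limma adjusted p = 0.982).

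Genes that are known to be switched on by ERK were listed as a readout that the ligand levels do not enter. Of 16 such genes 14 were tested and none passed by limma (2 of 14 at an unadjusted p under 0.05, PHLDA1 and IER3, beside 6.99% of all tested genes), with a median log2 fold change of -0.02 beside 0.0034 over all tested genes. PHLDA1 was at the upper end, with 34.7 ± 2.12 and 40 ± 1.04 RPKM (log2 fold change 0.21, SE 0.05, limma adjusted p = 0.248), and SPRY1, an inhibitor of receptor signalling that ERK induces, at the lower end (log2 fold change -0.24, SE 0.17, limma adjusted p = 0.849), along with IER3 (43.4 ± 6.28 and 36.6 ± 0.392 RPKM, log2 fold change -0.24, limma adjusted p = 0.567). The groups did not overlap for PHLDA1, which was higher, or for IER3, which was lower with GW3965, and 2 of 14 stands beside 1.84% of all genes. The early genes FOS and EGR1 were under 0.1 RPKM in both groups by their means and were not in the fit.

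**Figure D4:**
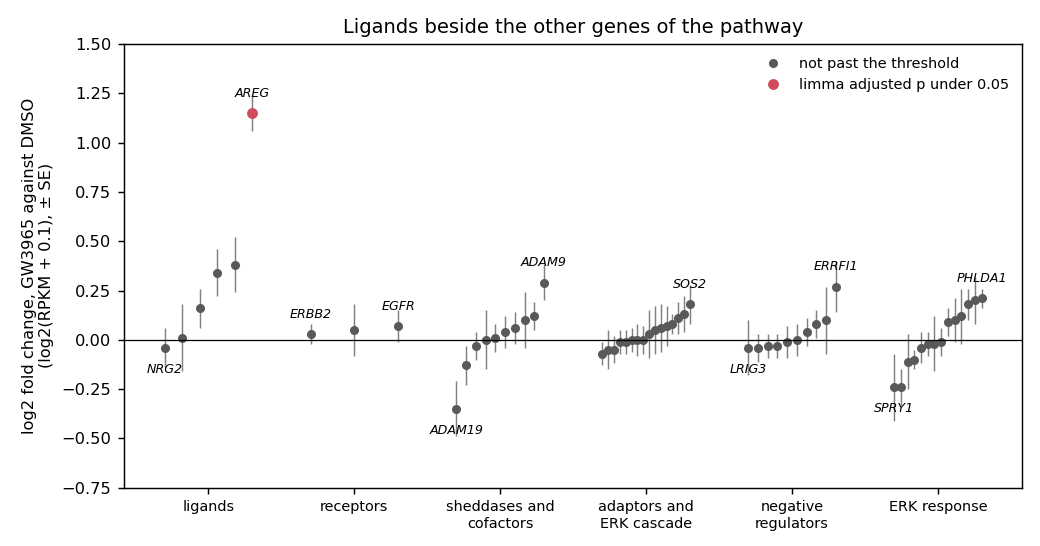
Log2 fold change of GW3965 against DMSO on log2(RPKM + 0.1), with its SE as a bar, for the tested ligand, receptor, sheddase, cascade, negative regulator and ERK response genes on the horizontal axis, ordered by value within each list. AREG (1.15, red) passed the limma threshold, and the other genes lie between -0.35 (ADAM19) and 0.38 (BTC).

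Genes with levels most like those of AREG over the 10 libraries, by Pearson r of log2(RPKM + 0.1), were ABCG1 (0.982), STK39 (0.981), C17orf67 (0.971), ABCA1 (0.966) and FASN (0.965). All 5 were called higher with GW3965, STK39 from 10.4 ± 0.691 to 18.2 ± 0.604 RPKM and FASN, the fatty acid synthase, from 77.1 ± 5.38 to 145 ± 3.27 RPKM, and they share the libraries and the difference between the groups with AREG. With group means subtracted, the values of r for these genes were 0.629, 0.529, 0.6, 0.469 and 0.023. The 5 genes with the highest r of that kind were ZNF529-AS1, ZNF688, AC018645.2, PRRG4 and ZNF841 (0.918 to 0.943), none of which was called. They were picked as the highest of all tested genes, and how high r reaches by chance in such a choice was not tested.

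Among the ligand genes themselves, r with AREG over all 10 libraries was 0.69 for BTC, 0.58 for TGFA, 0.42 for HBEGF, 0.05 for EPGN and -0.10 for NRG2. With group means subtracted it was 0.16 for BTC, -0.48 for TGFA, -0.24 for HBEGF, 0.16 for EPGN and 0.11 for NRG2. These 5 values lay between -0.48 and 0.16. The 4 ligand genes under 0.5 RPKM were not included. The values of r are a description over 10 libraries that fall into 2 groups.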

How the data were processed

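RNA of PC3 cells was sequenced by the authors as single reads of 50 bases from stranded libraries of total RNA depleted of ribosomal RNA (the labels say polyA RNA). The authors deposited RPKM values of 62656 genes, of which 15119 were 0 in all libraries. The processing notes name hg38, HISAT2 2.1.0 and HTSeq 0.11.2, while the methods name the mouse genome. All identifiers in the table are human. The deposited RPKM values were whole multiples of 1 step per gene, and 100% of the values above 0 gave whole reads (tolerance 1e-06 reads). These reads gave the depth, 30434696 to 41642538 per library, and each library's scaling, which was its median-of-ratios size factor.

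Samples were grouped by their titles. A mean of at least 0.5 RPKM over all libraries was required, which 20402 genes had, and these were compared with limma 3.58.1 (R 4.3.3, lmFit and eBayes with a trend) on log2(RPKM + 0.1), two-sided, with Benjamini-Hochberg adjustment over all of them and a threshold of 0.05. The offset of 0.1 understates changes of low genes. Exact permutation tests were two-sided over all labellings of the libraries. The members and lists were chosen with earlier results of these data known. Named were all ligand genes, 4 LXR target genes, all receptors, ADAM10, ADAM17, the highest and lowest tested gene of each list, the neighbours of AREG and the 5 genes most like AREG by r, with and without group means. IER3 was named after its values were seen. Some results that this rule would name are not reported here. Alternatives were pseudocounts of 1 and 0.01, no filter or 1 RPKM, quantile normalization, a replicate block, no trend, library weights, voom on the recovered reads and leaving out each library. The fit was checked on simulated data.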

Additional observations from a re-analysis of the deposited data

Results flagged for a closer look

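Among the 10 ligand genes in both groups, 20 groups of 5 libraries were tested for a library far from the others, and 1 was found. In the GW3965 group, AREG was lowest in library 5 (9.45 RPKM, against 11.9 to 13 RPKM in the others), with a gap to its neighbour of 0.721 of the whole range on the scale of log2(RPKM + 0.1), above the limit of 0.71. On the RPKM scale, taken after the data had been seen, the gap was 0.688 of the range, below that limit, and no other library of these genes passed it on either scale. Chance flags about 1 in 20 such groups, so 1 is the number that chance gives here.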

How the results depend on the processing

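AREG passed the threshold in all 19 alternatives, with log2 fold changes of 1.03 (pseudocount 1) to 1.22 (without GW3965 library 5) and limma adjusted p of 1.25e-05 to 0.00467. No other ligand gene and no gene of the pathway lists passed in any of them. The adjusted p of BTC lay between 0.408 and 0.896 and that of TGFA between 0.439 and 0.86. The number of genes called in the whole table was less stable. It was 32, and 21 without a filter (where more genes are tested), 20 without a trend, 56 with library weights, 63 with voom on the recovered reads, and 17 to 38 with 1 library left out. It was 18 without DMSO library 3, and 17, 19 and 17 without GW3965 library 2, 3 or 4. The cause was not tested.

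With the replicate number as a block, 16 genes were called, AREG among them, while SREBF1 and MYLIP missed the threshold (adjusted p = 0.0643 and 0.0724). The numbers did not pair the libraries: deviations of same-numbered libraries had r of -0.138 to 0.16, and 1 of 5 DMSO libraries matched its own number best. With the block, 0 of the 8 ratios of AREG to another ligand gene passed, since the smallest p that 5 pairs can give is 0.0625. Of the 4 ligand genes under the filter, 0 to 1 passed an exact test with 1 library left out (EGF, without DMSO library 5).

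Depth limits the 4 low ligand genes, of which NRG1 had at most 9 reads in a library. For NRG4 with GW3965 the spread between libraries (coefficient of variation 47.7%) was also above that of counting alone (29.9%).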
